A study of Homo sapiens with 3 samples.

Results

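The nuclear-encoded genes of the mitochondrial respiratory chain were measured in 3 RNA-seq libraries of HEK293T cells, an established human embryonic kidney line. The sample titles say HEK293, while the cell line field says HEK 293T, the derivative that carries the SV40 large T antigen. Members were chosen by symbol: the NDUFA, NDUFB, NDUFC, NDUFS, NDUFV and NDUFAB names of complex I, SDHA to SDHD of complex II, the UQCR names of complex III, the COX4 to COX8 names of complex IV and the ATP5 names of complex V. Of 57268 gene rows, 208 carried such a symbol, and 114 of these were set aside as pseudogene names or as ATP5SL. Of the 94 that remained, 79 had a mean of 1 or more counts per 1000000 reads (CPM) over the 3 libraries and make up the set described here. Of the 79, 76 encode known subunits (37 of complex I, 4 of complex II, 8 of complex III, 12 of complex IV and 15 of complex V). The other 3 only share the naming: ATP5S, COX7A2L and NDUFA6-AS1.

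The control library came from wild-type cells without overexpression, the second from cells that overexpressed ADAR2, and the last from cells in which SRSF9 was overexpressed along with ADAR2. ADARB1 is the gene of ADAR2, which converts adenosine to inosine in double-stranded RNA, and SRSF9 is a splicing factor of the serine/arginine-rich family. The question of the series was the effect of SRSF9 on the editing of ADAR2 targets. How the proteins were expressed, and whether the control cells received an empty vector, is not given in the sources used here. Each group was a single library, so the differences below have no replicate check and no test was made. Intervals are exact 95% counting intervals and cover counting error only.

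The libraries held 152878282, 132887974 and 97875935 reads in genes for control, ADAR2 and ADAR2 plus SRSF9. ADARB1 stood at 114, 16100 and 13647 CPM and SRSF9 at 372, 369 and 18288 CPM, so both genes were high in the libraries labelled with them. All 8 markers listed for HEK293 cells reached 1 CPM, whereas 1 of 6 muscle markers (ACTA1) and 1 of 5 fibroblast markers (COL1A1) did. The summed level of the muscle list was 2.48, 2.11 and 2.25 CPM in the 3 libraries, and that of the fibroblast list 34.9, 33.9 and 39.6 CPM.

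The respiratory chain sits in the inner mitochondrial membrane. Complexes I and II take electrons from NADH and succinate, complex III passes them from ubiquinol to cytochrome c, and complex IV hands them to oxygen. Complexes I, III and IV pump protons, and complex V, the ATP synthase, uses the resulting gradient to make ATP. Complex II is encoded wholly in the nucleus, whereas the others combine nuclear-encoded subunits with subunits made from mitochondrial DNA, so their assembly draws on both genomes.

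Together the 79 genes took 1.04% of the reads in the control library, 1.04% in the ADAR2 library and 1.03% in the ADAR2 plus SRSF9 library. Complex V took the largest part, with 3393, 3312 and 3386 CPM, and complex I the next largest, with 2769, 2903 and 2966 CPM over its 37 genes. Complex IV stood at 1912, 1940 and 1961 CPM, complex III at 1561, 1543 and 1581 CPM, and complex II at 479, 480 and 483 CPM. The order of the complexes was the same in each library.

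Levels between genes were compared as reads per kilobase of transcript per 1000000 reads (RPKM), taking each gene's transcript of median length in GENCODE. The median of the 79 genes was 118 RPKM, against 9.14 RPKM over the 15603 genes with a length and a mean of 1 CPM or more, and 74 of the 79 lay above that overall median. By complex, the median was 95.2 RPKM for complex I, 92.3 for complex II, 162 for complex III, 228 for complex IV and 164 for complex V. With the longest transcript in place of the median-length one, a choice added after the data were seen, these medians became 38.2, 51.8, 79.7, 139 and 62.6 RPKM. Complex IV was highest under both lengths, while complexes I and II, and III and V, exchanged places.

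**Figure D1:**
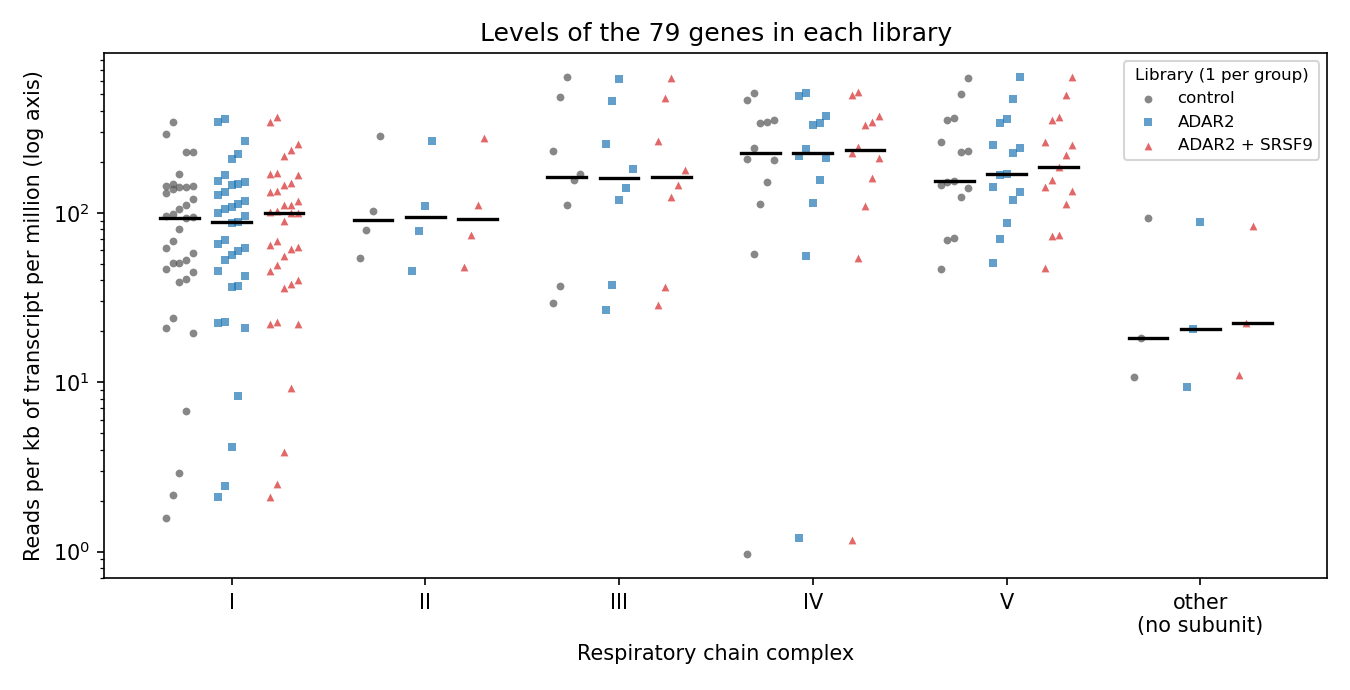
Level of each of the 79 genes (points, RPKM, log axis) by complex and library, with the median of each complex as a bar. Within a complex the 3 libraries sit at nearly the same height, while genes of one complex spread widely, from 1.93 to 352 RPKM in complex I and from 1.11 to 514 RPKM in complex IV on average over the libraries.

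Members differed far more from each other than between libraries. The highest level of a gene among the 3 libraries exceeded its lowest by 1.08 times as a median over the 79 genes and by at most 1.42 times. It stayed under 1.1 times in 47 genes and passed 1.3 times in 4, namely NDUFA7, NDUFA11, NDUFA13 and ATP5D. By contrast, the highest and lowest genes of complex I differed 183-fold in level per length.

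In complex I, NDUFS5, an accessory subunit, had the highest level, at 345, 345 and 367 RPKM in control, ADAR2 and ADAR2 plus SRSF9. NDUFS8, a core subunit that carries iron-sulfur clusters, followed at 291, 357 and 343 RPKM, but averaged 38.0 RPKM with its longest transcript. NDUFV1, the core subunit that binds NADH and FMN, stood at 143, 153 and 170 RPKM. The lowest were NDUFA7 at 1.57, 2.11 and 2.10 RPKM and NDUFV2, an iron-sulfur partner of NDUFV1, at 2.16, 2.44 and 2.5 RPKM, and with the longest transcripts NDUFA9 was lowest. The proteins of NDUFV1 and NDUFV2 sit side by side in the NADH-binding arm of the complex, yet their counted levels lay far apart. The pseudogene row NDUFV2P1, set aside here, had 613, 512 and 337 reads, against 311, 305 and 223 for NDUFV2. How reads that match both were assigned is not given in the sources used here, so the low level of NDUFV2 is uncertain.

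In complex II, SDHC, one of the membrane anchors, led at 283, 267 and 277 RPKM, and SDHD, the other anchor, was lowest at 54.1, 45.3 and 48.2 RPKM. The order of this complex depends on the transcript chosen, since SDHC became the lowest at a mean of 9.36 RPKM with its longest transcript. In complex III, UQCRH, the hinge protein that contacts cytochrome c1, had 635, 614 and 628 RPKM. UQCRFS1, the Rieske iron-sulfur protein, had 29.4, 26.8 and 28.8 RPKM and was the lowest of its complex, a place taken by UQCR11 with the longest transcripts. The core proteins UQCRC1 and UQCRC2 averaged 177 and 148 RPKM.

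In complex V, ATP5B, the catalytic beta subunit, had the most reads of any member, with 143205, 115736 and 87282. Per length, ATP5G2 led at 624, 632 and 630 RPKM (ATP5B led with the longest transcripts), and ATP5O, the oligomycin sensitivity-conferring subunit of the stalk, was lowest at 46.5, 50.4 and 46.9 RPKM. ATP5G1, ATP5G2 and ATP5G3 encode the same mature c subunit of the rotor ring from separate genes. Their mean levels were 246, 629 and 348 RPKM, and none was silent in this line.

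Several complex IV subunits exist as a ubiquitous form and as a form known from muscle, testis or lung, and the ubiquitous form carried nearly all reads. COX4I1 had 464, 490 and 498 RPKM, whereas COX4I2 had 0 reads in every library, which allows at most 0.0313 CPM in the shallowest one. COX7B likewise averaged 211 RPKM against 0 reads for COX7B2. COX6A1, the liver form, averaged 113 RPKM, while the muscle form COX6A2 had 5, 7 and 10 reads. COX7A2 averaged 338 RPKM and the muscle form COX7A1 had 28, 24 and 12 reads. COX6B1 averaged 363 RPKM against 1.11 RPKM for the testis form COX6B2. COX8A averaged 157 RPKM against 32, 13 and 11 reads for COX8C. NDUFA4, now counted as a complex IV subunit, averaged 55.6 RPKM, and its paralogue NDUFA4L2 had 139, 110 and 93 reads. COX7C, a subunit with no such pair here, was the highest of the complex at 510, 514 and 518 RPKM, although COX6B1 was highest with the longest transcripts.

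The 15 rows under 1 CPM comprised 6 of these alternative forms (COX4I2, COX6A2, COX7A1, COX7B2, COX8C and NDUFA4L2), second rows of NDUFA7, NDUFB8, SDHD and UQCR11, and 5 further names (ATP5L2, ATP5J2LP, ATP5J2-PTCD1, NDUFB2-AS1 and NDUFC2-KCTD14). The genes nearest the limit were NDUFA4L2 at 0.896 CPM and ATP5L2 at 0.817 CPM outside it, and NDUFA7 at 1.16 CPM, COX6B2 at 1.85 CPM and NDUFV2 at 2.20 CPM inside it. Several of the lowest members share exons with other genes. In GENCODE, 6 members share 20% or more of their exonic bases with another gene on the same strand: COX8A, NDUFB8, NDUFA7, COX6B2, NDUFV2 and NDUFA13. Their median level was 3.0 RPKM, against 141 RPKM for the 54 members without any such overlap. The 14 members with 10% or more had a median of 29.9 RPKM. NDUFA7 shares 32.3% of its exonic bases with the row AC010323.1, COX6B2 30.9% with AC020922.1, and NDUFV2 28.4% with AP005263.1. How reads in shared exons were counted is not given in the sources used here, so the low values of these genes are uncertain as levels of the transcripts.

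**Figure D2:**
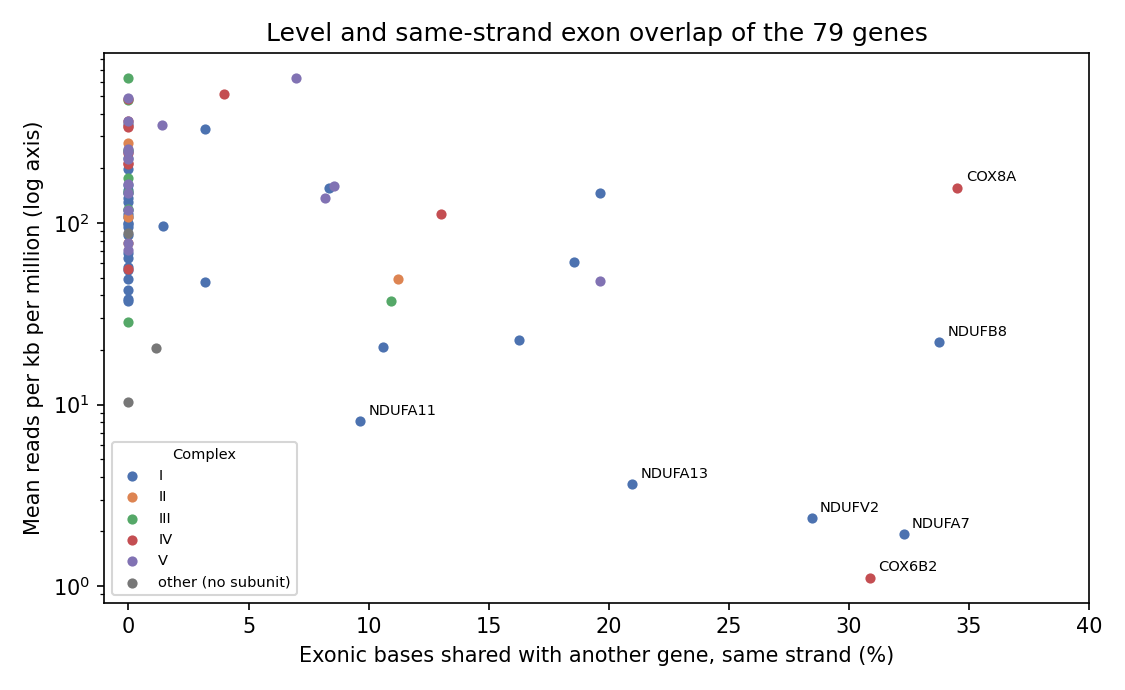
Mean level of each gene (RPKM, log axis) against the percent of its exonic bases that another gene shares on the same strand in GENCODE, coloured by complex. NDUFA7, COX6B2, NDUFV2 and NDUFA13, all with an overlap of 20% or more, lie under 4 RPKM, while COX8A with 34.5% lies at 157 RPKM.

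Promoters were looked at because nuclear respiratory chain genes are known for shared binding motifs of NRF1, GABP (also called NRF2), YY1 and SP1. RefSeq windows of 300 bases on GRCh38.p14, from 250 before to 50 after the first listed start, matched 65 of the 79 genes by identifier or symbol. Members without an entry included ATP5B, ATP5D, ATP5G3, ATP5J2, ATP5S, COX6C, NDUFA4, NDUFB5, NDUFB9, NDUFC2, NDUFS5, SDHC and UQCRB. Each motif was searched as an exact word on both strands. The NRF1 word GCGCATGCG was in 10 of 65 windows (15.4%), against 2.10% of 27305 promoters of all genes. The YY1 word AAGATGGCG was in 9 (13.8%) against 1.85%, and the GABP word CCGGAAG in 19 (29.2%) against 10.7%. The SP1 word GGGCGG was in 40 (61.5%) against 44.6%, and the shorter word CCAAT in 22 (33.8%) against 35.7%. Over the 15842 promoters of protein-coding genes the shares were 2.76% for the NRF1 word, 2.74% for YY1, 14.2% for GABP, 58.5% for SP1 and 36.4% for CCAAT, so the members' share of the SP1 word was near that background. At least one of the NRF1, GABP and YY1 words was in 31 windows, and 4 windows (ATP5I, ATP5J, COX6A1 and SDHD) held both the NRF1 and the GABP word.

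The NRF1 word is printed for the 7 members that hold it upstream of a single listed start, because NRF1, nuclear respiratory factor 1, takes its name from genes of this chain. Each line is 30 bases 5′ to 3′ on the gene's strand in GRCh38.p14, with the word, on either strand, in capitals. ATP5C1, NDUFB4 and SDHD hold it on both strands, as overlapping words in one palindrome.
ATP5C1 (chr10:7788144-7788173, plus strand): ggggagcttcgGCGCATGCGCgctgaggcc
ATP5I (chr4:674336-674365, minus strand): cgccgctgacgGCGCATGCGtgcgcccagc
COX6A1 (chr12:120437883-120437912, plus strand): cggagggcacaCGCATGCGCacgaaggaaa
NDUFB4 (chr3:120596166-120596195, plus strand): aagagcacttcGCGCATGCGCatatcaccg
NDUFS6 (chr5:1801350-1801379, plus strand): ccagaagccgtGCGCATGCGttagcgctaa
NDUFS7 (chr19:1383822-1383851, plus strand): gttccggtttcCGCATGCGCtccgagccgc
SDHD (chr11:112086752-112086781, plus strand): cagctgtgtttGCGCATGCGCgacgggtgt
The word was present in complexes I (4 of 32 windows), II (1 of 3), IV (1 of 10) and V (4 of 11), and in 0 of 7 windows of complex III. The 10 holders and the other 55 members had median log2 ratios of 0.04 and 0.05 in ADAR2 against control. The 7 genes printed above lay on both sides of 0 there, from SDHD at -0.26 to ATP5I at 0.29. A match is a description of these letters and says nothing on binding in these cells.

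For the differences between libraries, a gene was counted as higher or lower when its ratio of scaled CPM was 1.2-fold or more and its counting interval excluded 1. In bulk RNA, fewer cells and less RNA per cell cannot be told apart. In ADAR2 against control, 7 of the 79 genes (8.86%) were higher and 0 were lower, though SDHD passed as lower under upper-quartile scaling. Over all 16072 genes with a mean of 1 CPM or more, 7.43% were higher and 6.46% lower by the same rule, so the share of higher members was near the background, and 0 of 79 lower was below it. The 7 were NDUFA13, NDUFA7, COX6B2, NDUFA11, NDUFS8, NDUFA3 and ATP5I. Of these, 5 belong to complex I, which holds 37 of the 79 genes. Among the 75 members with a mean of 10 CPM or more, 4 were higher, against 3.59% of 10362 genes at that level, and 0 were lower, against 4.02%. The median log2 ratio of the 79 genes was 0.03, beside 0.00 over all genes, and 73.4% of them lay within 1.1-fold, beside 53.8% of all genes.

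Among core subunits of complex I, NDUFS8 stood at 103, 126 and 121 CPM in control, ADAR2 and ADAR2 plus SRSF9. Its log2 ratio in ADAR2 against control was 0.30 (ratio interval 1.2 to 1.25). NDUFS7, the core subunit that passes electrons on to ubiquinone, had 52.8, 62.1 and 63.4 CPM and a log2 ratio of 0.23. NDUFS1, a large iron-sulfur subunit of the peripheral arm, went the other way, with 121, 109 and 109 CPM and a log2 ratio of -0.15. For these core genes both overexpression libraries lay on the same side of the control.

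Among accessory subunits of complex I, NDUFA11, part of the membrane arm, had 14.5, 17.8 and 20 CPM, and its log2 ratio in ADAR2 against control was 0.30 (ratio interval 1.16 to 1.3). NDUFA3 had 64.1, 78.3 and 82.5 CPM and a log2 ratio of 0.29. In both, the control was the lowest library and ADAR2 plus SRSF9 the highest. NDUFA13, also known as GRIM-19, had 370, 457 and 307 reads, or 2.39, 3.40 and 3.20 CPM, and a log2 ratio of 0.51 (ratio interval 1.24 to 1.63). NDUFA7 rested on 146, 170 and 121 reads and its log2 ratio of 0.42 had a wide interval, from 1.07 to 1.68 as a ratio. NDUFA2 and NDUFB10 were at log2 ratios of 0.23 and 0.21, short of 1.2-fold. At the low end were NDUFA5 at -0.17, NDUFB3 at -0.16 and NDUFS4, a subunit known from Leigh syndrome, at -0.14.

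In complex II, SDHD had 46.6, 39.0 and 41.5 CPM and the lowest log2 ratio of all members in ADAR2 against control, -0.26 (ratio interval 0.808 to 0.868), just short of 1.2-fold. SDHA, the flavoprotein that oxidises succinate, was at 0.11. SDHD shares 11.2% of its exonic bases with another gene on the same strand. In complex III, UQCRC2 and UQCRFS1 were at -0.16 and -0.14 and UQCR10 at 0.14, and no gene reached 1.2-fold. In complex IV only COX6B2, with 247, 270 and 187 reads, passed, at 0.33 (ratio interval 1.05 to 1.5). The other genes of complex IV lay between -0.11 for COX7A2 and 0.11 for COX6B1.

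In complex V, ATP5I, the e subunit of the membrane part, had 26.0, 31.7 and 27.1 CPM, so that the ADAR2 library stood above both others. Its log2 ratio was 0.29 in ADAR2 against control (ratio interval 1.17 to 1.27). In GENCODE, 61.6% of the exonic bases of ATP5I are shared with another gene, MYL5, on the opposite strand, and the strand setting of the counting is not given in the sources used here. ATP5D, the delta subunit of the F1 head, had 98.8, 118 and 131 CPM and a log2 ratio of 0.25. The 3 largest subunits of the head, ATP5A1, ATP5B and ATP5C1, were at -0.06, -0.10 and -0.11, and ATP5L, the g subunit, was at -0.12.

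By complex, the median log2 ratio in ADAR2 against control was 0.09 for complex I, -0.05 for II, -0.01 for III, 0.02 for IV and -0.01 for V. Of complex I genes 26 were above 0 and 11 below, and of the 4 complex II genes 1 was above 0. Under the 4 other scalings tried, the median of complex I lay from 0.08 to 0.10. That of complex II lay from -0.06 to -0.03, and the medians of complexes III and V changed sign. A scaling shifts all genes of a comparison by nearly the same amount, so it cannot check the differences between complexes.

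**Figure D3:**
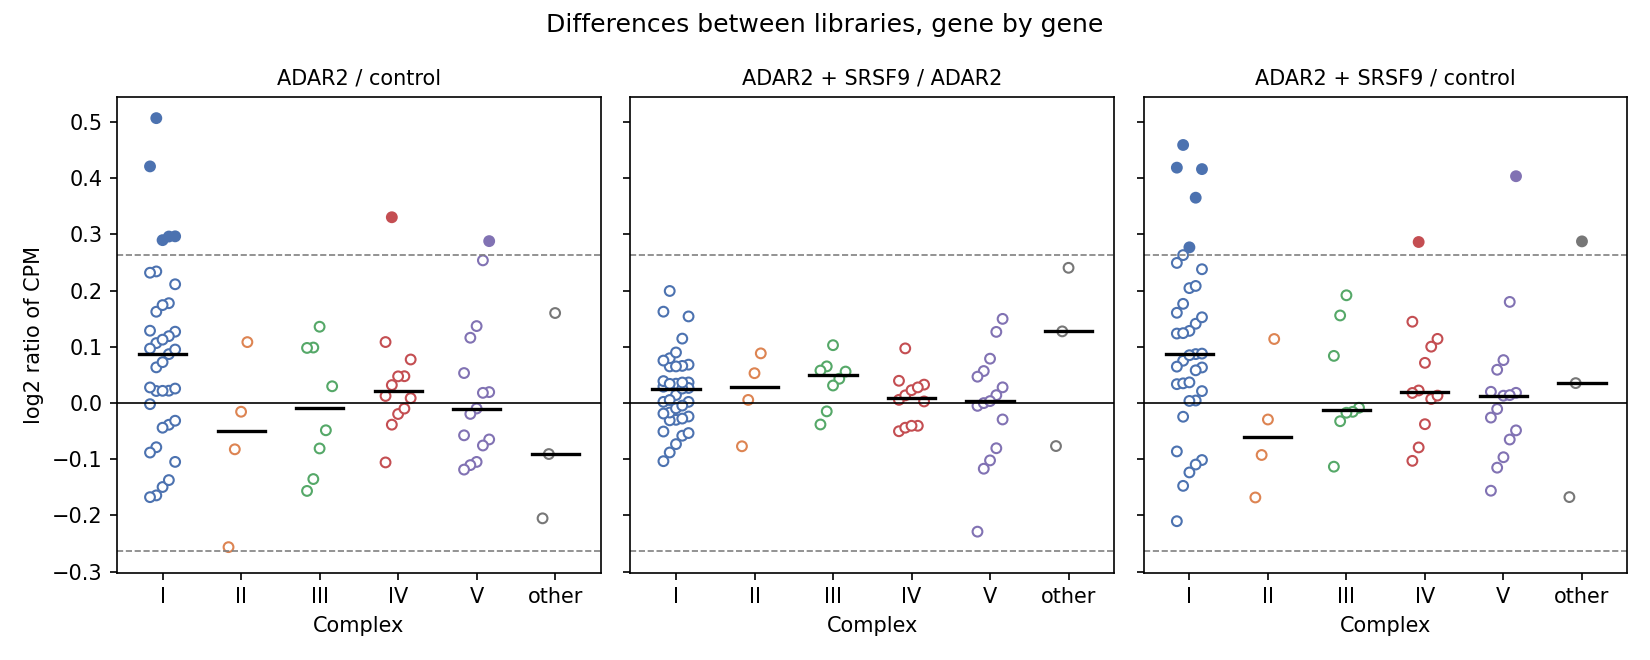
log2 ratio of scaled CPM of each gene (circles) by complex in the 3 comparisons, with the median of each complex as a bar, 1.2-fold as dashed lines and filled circles for genes counted as higher. In ADAR2 against control 5 of 7 filled circles are in complex I, and in ADAR2 plus SRSF9 against control 5 of 8. Complex I holds 37 of the 79 genes. There are no filled circles in ADAR2 plus SRSF9 against ADAR2, where the genes crowd around 0.

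When SRSF9 was added to ADAR2, 0 of 79 genes were higher and 0 were lower. Over all genes with a mean of 1 CPM or more, 5.72% were higher and 8.21% lower, and at 10 CPM or more the shares were 1.31% and 3.0%. The members' median log2 ratio was 0.02, beside 0.01 over all genes. Of the 79, 73 (92.4%) lay within 1.1-fold, beside 66.2% of all genes. At 10 CPM or more the shares within 1.1-fold were 92.0% of members and 80.6% of all genes.

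At the ends of the range were 2 genes in which the ADAR2 library stood apart from both others. ATP5S, which is no subunit of the ATP synthase, had 12.6, 10.9 and 12.9 CPM, so that ADAR2 was the low library, and its log2 ratio was 0.24 (ratio interval 1.09 to 1.28). ATP5I was lowest at -0.23 (ratio interval 0.812 to 0.896), so that it stood near its control level. NDUFB3, a complex I accessory subunit, showed the reverse order, with 53.5, 47.8 and 54.9 CPM and a log2 ratio of 0.20. NDUFA11, NDUFV1 and ATP5D were at 0.16, 0.15 and 0.15, and ATP5G1 at 0.13. ATP5J2, the f subunit, was at -0.12, NDUFA2 at -0.10 and ATP5O at -0.10. Of the 7 membrane and stalk subunits of complex V, ATP5I, ATP5J2 (49.7, 54.7 and 50.4 CPM) and ATP5O (43.3, 46.9 and 43.7 CPM) had their highest value in the ADAR2 library. ATP5J, ATP5L and ATP5H had theirs in the control and ATP5F1 in ADAR2 plus SRSF9. By complex the medians were 0.03 for I, 0.03 for II, 0.05 for III, 0.01 for IV and 0.00 for V, and with plain library totals those of complexes I, II, IV and V were below 0.

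In ADAR2 plus SRSF9 against control, 8 of 79 genes (10.1%) were higher and 0 were lower, beside 13.8% and 12.7% of all genes. At 10 CPM or more, 5 of 75 were higher and 0 lower, beside 10% and 8.47% of all genes. The share of higher members was under the background in both cases. This comparison shares the control library with the first one and the ADAR2 plus SRSF9 library with the second, so its values are not independent of theirs. The members' median was 0.04, beside -0.01 over all genes, and 67.1% lay within 1.1-fold, beside 44.1% of all genes.

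The 8 genes were NDUFA11 at a log2 ratio of 0.46 (ratio interval 1.29 to 1.46), NDUFA7 and NDUFA13 at 0.42 each, ATP5D at 0.40 (1.29 to 1.35), NDUFA3 at 0.37, NDUFA6-AS1 and COX6B2 at 0.29 each, and NDUFB7 at 0.28 (1.18 to 1.25). NDUFB7, an accessory subunit of complex I, had 73.0, 81.7 and 88.4 CPM. NDUFA6-AS1, a non-coding RNA read from the strand opposite NDUFA6, had 14.1, 15.7 and 17.2 CPM. In NDUFB7, NDUFA6-AS1, NDUFA11, NDUFA3 and ATP5D the 3 libraries stood in the same order, control lowest and ADAR2 plus SRSF9 highest. NDUFS7 at 0.26 lay on the limit: it was not counted here because the prior count put its log2 ratio marginally below, and it was counted with DESeq2 size factors and with sizes that leave out mitochondrial and overexpressed genes. NDUFV1 at 0.25 and NDUFS8 at 0.24 were just under it. The lowest were NDUFS4 at -0.21, with 31.4, 28.5 and 27.1 CPM, SDHD and COX7A2L at -0.17 each, ATP5J, the coupling factor 6 subunit, at -0.16, NDUFS1 at -0.15, NDUFC2 at -0.12, ATP5L at -0.11 and UQCRC2 at -0.11. COX7A2L, known for its role in joining complexes III and IV into supercomplexes, had 104, 98 and 92.9 CPM. The median of complex I was 0.09, with 30 genes above 0 and 7 below, and that of complex II was -0.06. Medians for complexes III, IV and V were -0.01, 0.02 and 0.01. With plain library totals the median of complex I was 0.04 and those of IV and V were -0.025 and -0.032. With the GC trend removed, complexes I and IV lay close together, at 0.065 and 0.063. Complexes II, III and V were then at -0.06, 0.03 and -0.01.

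Members with higher ratios had transcripts rich in G and C. All 7 genes counted as higher in ADAR2 against control, and 7 of the 8 in ADAR2 plus SRSF9 against control, were among the 26 members with the highest GC content. The median log2 ratio in ADAR2 against control was -0.08 in the 27 members with the lowest GC content, 0.03 in the 26 next and 0.11 in the highest 26. Their median GC contents were 43.9%, 51.4% and 58.4%. Against control, the medians of the same members in ADAR2 plus SRSF9 were -0.05, 0.02 and 0.16, and in ADAR2 plus SRSF9 against ADAR2 they were 0.00, 0.03 and 0.03. Across the 79 genes the rank correlation (Spearman) of GC content with the log2 ratio was 0.66, 0.12 and 0.68 in ADAR2 against control, ADAR2 plus SRSF9 against ADAR2 and ADAR2 plus SRSF9 against control. Across 9594 protein-coding genes with 10 CPM or more it was 0.76, 0.21 and 0.73. The genes of one comparison share both libraries, so these values describe the libraries and are no test.

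**Figure D4:**
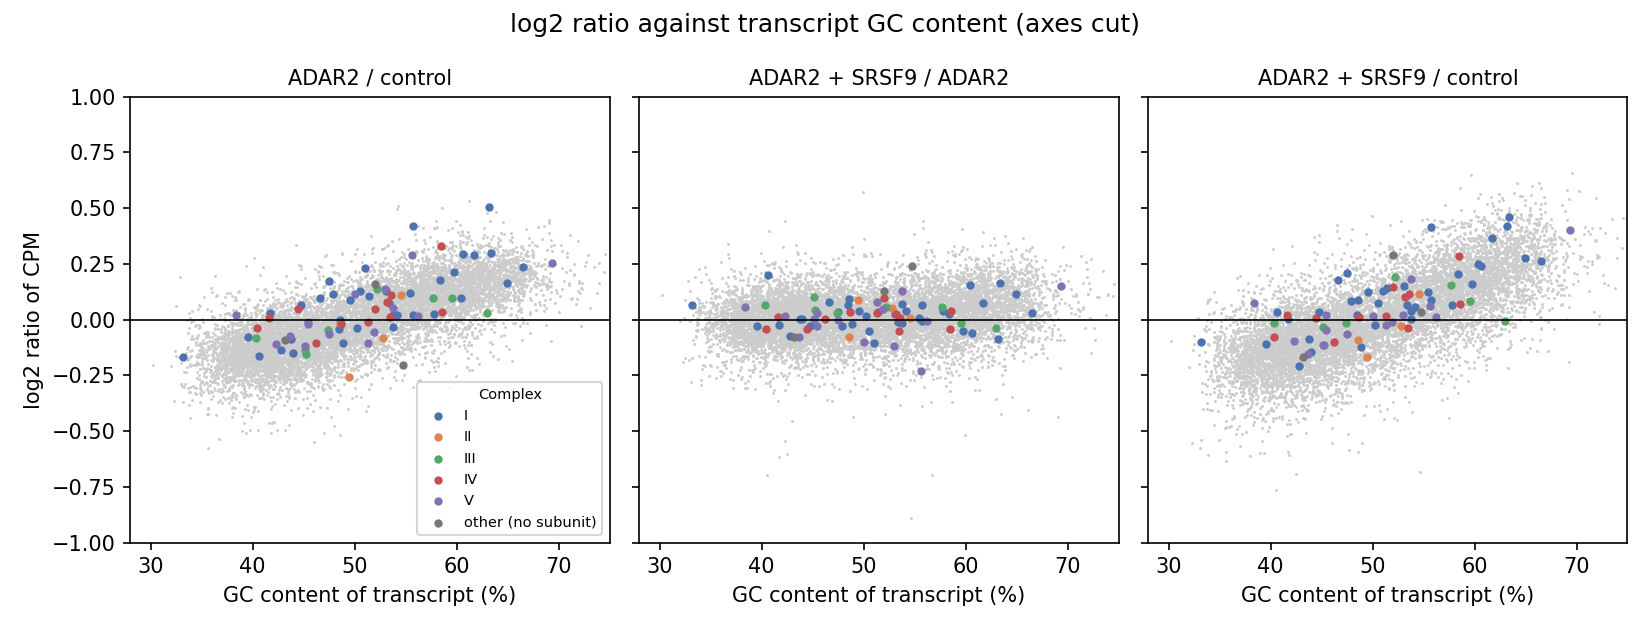
log2 ratio of scaled CPM against GC content of the transcript (%) for the 79 genes, coloured by complex, over 9594 protein-coding genes in grey. Among members and other genes alike, GC-rich transcripts had the higher ratios in both comparisons with the control, with rank correlations of 0.66 and 0.68 for members, and 0.12 in ADAR2 plus SRSF9 against ADAR2. The axes leave out 8 grey genes.

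With the trend on GC content of the protein-coding genes removed, 2 members were higher in ADAR2 against control, NDUFA13 at 0.34 and NDUFA7 at 0.35. The 2 in ADAR2 plus SRSF9 against control were NDUFV2 at 0.26, which had not passed before, and NDUFA6-AS1 at 0.27. NDUFA7, NDUFA13, NDUFA11, NDUFA3, ATP5D, COX6B2 and NDUFB7 no longer passed there. In ADAR2 against control NDUFA11, NDUFA3, NDUFS8, COX6B2 and ATP5I no longer passed. NDUFA13, NDUFA7 and NDUFV2 share 20% or more of their exonic bases on the same strand and had at most 457 reads in a library. The shares over all genes with the trend removed were not counted. The count stayed at 0 in ADAR2 plus SRSF9 against ADAR2. The median of complex I in ADAR2 against control was 0.05 after the removal, and those of complexes II, III, IV and V were -0.04, -0.02, 0.04 and 0.04. SDHD was at -0.23, beside -0.26 before.

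Position went with GC content. Chromosome 19 carries 11 of the members, with a median GC content of 62.9%, and 5 of the 7 genes higher in ADAR2 against control and 7 of the 8 in ADAR2 plus SRSF9 against control lie there. The median log2 ratio of these 11 was 0.25 and 0.29 in the comparisons with the control, beside 0.02 and 0.02 for the 68 members elsewhere, whose median GC content was 50.1%. UQCRFS1, on the same chromosome but with 45.1% GC, was at -0.14 and -0.03. UQCR11, also on that chromosome but with 62.9% GC, was at 0.03 and -0.01. The parts of GC content and of position in these differences were not tested.

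The 13 subunits encoded by mitochondrial DNA gave 6.85%, 6.51% and 6.58% of all reads, several times the share of the nuclear genes. None of the 13 passed 1.2-fold in any comparison. Of the summed reads of members and mitochondrial genes, members held 8.92% for complex I in control (95% interval 8.90 to 8.95). They held 9.82% in ADAR2 and 9.97% in ADAR2 plus SRSF9. For complex IV the share of the members was 6.41%, 6.93% and 6.57%, and for complex V 32.5%, 32.0% and 32.3%. For complex III it was 25.5%, 24.8% and 22.8%, its only mitochondrial gene being MT-CYB, cytochrome b, which had 703085, 628391 and 512233 reads. CYC1, the nuclear gene of cytochrome c1, had 34261, 31159 and 24353 reads but lies outside the naming rule. It is left out of these shares, as are USMG5 and C14orf2, nuclear genes of complex V, so the full nuclear shares of complexes III and V are larger. The log2 ratio of MT-CYB was 0.04 in ADAR2 against control and 0.19 in ADAR2 plus SRSF9 against ADAR2. Summed reads of the complex III members differed by 0.04 in the latter comparison. For complex I the summed log2 ratio in ADAR2 against control was 0.07 for the nuclear genes and -0.08 for the mitochondrial ones. These are shares of reads, with the counting error only.

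Genes that build or serve the chain were examined as lists of their own. Of the 43 assembly factors measured, 1 was higher in ADAR2 against control and 0 were lower, beside 7.43% and 6.46% of all genes. It was PET100, a complex IV factor, at 0.40, with 331, 379 and 243 reads. For ADAR2 plus SRSF9 against control 2 were higher, SCO2, a copper chaperone of complex IV, at 0.37 and FOXRED1, a complex I factor, at 0.30. Over all genes 13.8% were higher there, so the shares of higher assembly factors were under the background. The medians of the assembly factors were 0.03, 0.03 and 0.06 in ADAR2 against control, ADAR2 plus SRSF9 against ADAR2 and ADAR2 plus SRSF9 against control.

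A further list of 11 genes held genes that carry or feed electrons to ubiquinone or cytochrome c, together with ATPIF1, C14orf2, USMG5 and CYC1. Of these 11, 1 was higher and 1 lower in ADAR2 against control, beside 7.43% and 6.46% of all genes. In ADAR2 plus SRSF9 against ADAR2 2 were higher, beside 5.72%, and against control 2, beside 13.8%. ETFB, a subunit of the electron transfer flavoprotein, had 3369, 3707 and 2644 reads and was higher in both comparisons with the control, at 0.34 each. DHODH, which feeds electrons from pyrimidine synthesis, had 2953, 2605 and 2282 reads and was higher with SRSF9, at 0.29 against ADAR2 and 0.32 against control. SQRDL, the sulfide quinone oxidoreductase, had 187, 99 and 107 reads and was at -0.71 in ADAR2 against control and 0.60 in ADAR2 plus SRSF9 against ADAR2. Of 18 regulators of mitochondrial biogenesis, 17 reached a mean of 1 CPM. Of these, 1 was higher in ADAR2 plus SRSF9 against control, beside 13.8% of all genes: POLRMT, the mitochondrial RNA polymerase, at 0.32. NRF1 itself was at -0.10 in ADAR2 plus SRSF9 against ADAR2. PPARGC1A, the coactivator PGC-1 alpha, lay under the 1 CPM limit, with 208, 114 and 64 reads, so that the control library was highest and ADAR2 plus SRSF9 lowest. Its log2 ratios were -0.66 in ADAR2 against control (ratio interval 0.50 to 0.80) and -1.01 in ADAR2 plus SRSF9 against control (0.37 to 0.66). In ADAR2 plus SRSF9 against ADAR2 the log2 ratio was -0.34. The ratio interval there, 0.57 to 1.08, includes 1, so the order of those libraries is within counting error.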

How the data were processed

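Total RNA from HEK293T cells was made into directional libraries, per the labels' protocols. The submitters' processing notes name hg19, STAR, Picard, GATK and SAMtools without roles. Which program counted the reads, and with which strand setting, is not given here. The deposited values are the authors' raw counts, whole numbers per gene. The members and lists were chosen with earlier results of these data known.

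Counts were scaled with TMM (edgeR 4.0.16, R 4.3.3) to CPM. Ratios used a prior count of 0.5, and exact Clopper-Pearson intervals (95%, scipy 1.17.1) came from the counts. With 1 library per group no test was possible, so genes were counted at 1.2-fold with an interval excluding 1. A count of 0 was read as at most 3 reads. The interval and call procedure was run on simulated counts that held counting error alone. That simulation had no variation between libraries and no trend on GC content, so it cannot check the calls against either. Transcript lengths, GC content and exon overlaps came from GENCODE v29 on GRCh38, not the build of the counts, so coordinates are given only for RefSeq promoter stretches on GRCh38.p14. Some items are not reported here. For genes with several promoters listed, the first was used. Other scalings (DESeq2 1.42.0 size factors among them), filters, prior counts and folds were tried. Named genes are the 8 highest and 8 lowest ratios per comparison at 10 CPM or more with an interval excluding 1, the highest and lowest level of each complex, isoform pairs, members that encode no subunit, and genes of other lists past 1.2-fold; others named were chosen after their values were seen.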

Additional observations from a re-analysis of the deposited data

How the results depend on the processing

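Some counts depended on the limits set. In ADAR2 against control, where 7 members were higher, there were 4 at a mean of 10 CPM or more, 4 among genes with under 10% same-strand overlap (an alternative added after the data were seen), and 2 with the GC trend removed. In ADAR2 plus SRSF9 against control, where 8 were higher, the same alternatives gave 5, 5 and 2, and plain library totals gave 5. At 1.1-fold the count was 20 (14 higher and 6 lower) in ADAR2 against control. It was 6 (5 higher and 1 lower) in ADAR2 plus SRSF9 against ADAR2, and 25 (20 higher and 5 lower) in ADAR2 plus SRSF9 against control. The shares over all genes at 1.1-fold were not counted, so the counts at that fold have no background beside them. At 1.5-fold and at 2-fold they were 0 in both comparisons with the control. In ADAR2 plus SRSF9 against ADAR2 plain library totals gave 1 lower gene in place of 0. Plain totals also moved the median log2 ratio of the members to -0.022 there and to -0.0097 in ADAR2 plus SRSF9 against control, with the median of all genes at -0.03 and -0.05. Counts under DESeq2 size factors, upper-quartile scaling, sizes that leave out mitochondrially encoded genes and both overexpressed genes, no filter, a prior count of 5 and subunits alone stayed within 1.5 times. Within those of ADAR2 against control, upper-quartile scaling gave 7 higher and 1 lower (SDHD), and no filter gave 7 higher and 1 lower. The 54 ratios of named genes held the 7 calls of ADAR2 against control and the 8 of ADAR2 plus SRSF9 against control, and the others had none. Of these calls, 12 were lost with the GC trend removed, 3 with plain totals and 1 with upper-quartile scaling. None of the ratios changed direction with a call. With the GC trend removed, 21 ratios without a call moved beyond their counting error, and 21 of the 54 stayed the same. Calls were gained by 2 with DESeq2 size factors, 2 with sizes that leave out mitochondrial and overexpressed genes, 1 with plain totals and 1 with upper-quartile scaling. No paired analysis was possible because each group holds 1 library. Depth limits NDUFA7, COX6B2, NDUFV2 and NDUFA13, each with at most 457 reads in a library.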

Other observations

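Pseudogenes named after respiratory chain genes were set aside from the members and were looked at separately, without comparison to other pseudogenes. Of 113 such rows, 81 had at least 1 read and 11 had a mean of 1 CPM or more. In ADAR2 plus SRSF9 against ADAR2, 6 of these 11 were lower at 1.2-fold and 0 were higher, beside 8.21% and 5.72% of all genes. Their median log2 ratio was -0.28, beside 0.03 for the 11 members they are named after, and all 11 lay below their parent gene. In ADAR2 plus SRSF9 against control, 6 of the 11 were lower and 0 higher, beside 12.7% and 13.8% of all genes. Their median there was -0.29, and all 11 lay below the parent. In ADAR2 against control 4 of the 11 lay below the parent and 1 was lower at 1.2-fold, NDUFA5P11, beside 6.46% of all genes. COX7CP1, named after COX7C, had 1077, 1084 and 531 reads, and its log2 ratio in ADAR2 plus SRSF9 against ADAR2 was -0.54, beside 0.01 for COX7C. COX6A1P2 had 1813, 1590 and 922 reads and was at -0.30, beside -0.05 for COX6A1. ATP5G2P4 and ATP5A1P3 were at -0.55 and -0.52. Pseudogenes resemble their coding genes in sequence, and how reads that match both were assigned is not given in the sources used here, so their counts are uncertain. These differences were looked at after the values were seen and were not tested.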
